A study of Sus scrofa with 12 samples.

Results

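Expression of 10 genes used as general markers of endothelial cells, PECAM1, CDH5, ERG, EMCN, ESAM, CLDN5, ROBO4, EGFL7, MMRN2 and ECSCR, was described in pig hearts after ischemia-reperfusion injury. The members were given as a list of symbols and were found through the pig gene symbols of the Ensembl identifiers. All 10 were present among the 35682 genes in the counts, and all 10 passed the filter on low counts that left 13844 genes for testing. None of the 10 passed the test between border zone and remote zone, and their log2 fold changes lay between -0.50 and 0.31. Within an animal most of them moved the same way, higher in the border zone of some animals and lower in that of others. CLDN5, the main claudin of endothelial tight junctions, was lower in the border zone of 5 of 6 animals, while 25.4% of all genes were lower in at least 5. In ratios set up after its values were seen, it was lower in 6 of 6 animals relative to PECAM1, ERG, ESAM, MMRN2 and ECSCR and in 5 of 6 relative to the other 4 members, while relative to 21.9% of all genes it was lower in 6 of 6.

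The 12 libraries came from 6 Yorkshire pigs, all female and 10 to 12 weeks old, named here by their numbers 1022, 1322, 1323, 1623, 1922 and 3622. Each animal had the left anterior descending artery occluded with a balloon for 60 min and then reperfused. From day 9 each was immunosuppressed with prednisolone at 20 mg, mycophenolate mofetil at 500 mg and tacrolimus at 0.75 mg/kg, all per day, and it underwent a left thoracotomy on day 14. At the thoracotomy animals received either organoids made of human endothelial progenitor cells and human smooth muscle cells, or fibrin glue alone. Which animal received which was not used here, so both regions hold animals of both kinds and no comparison of the treatments was made. The border zone was the tissue beside the infarct, the remote zone was the posterior wall, and both were taken at the mid level 28 days after the thoracotomy, with 1 library per region and animal. By the study's methods all animals had been through occlusion, immunosuppression and surgery, so the remote zone is not the tissue of an uninjured heart. Reads were aligned to the pig genome alone, so the values are counts on pig genes, and any reads of human cells were not told apart.

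Endothelial cells line every blood vessel and lymphatic, and in the heart they form a dense capillary bed between the muscle fibers. Neighboring cells are held together by adherens and tight junctions that set how leaky the vessel is, and ETS-family transcription factors such as ERG keep the junction genes and other endothelial genes switched on. The members cover these roles: PECAM1, CDH5, ESAM and CLDN5 sit at cell contacts, ERG is the transcription factor, EMCN, ROBO4 and ECSCR are surface proteins, and EGFL7 and MMRN2 are secreted into the matrix around the vessel. In bulk tissue a lower value of such a gene from fewer endothelial cells and one from less RNA per cell cannot be told apart.

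Total counts on genes were between 15130210 and 31618680 per library. The mitochondrial share of counts was between 5.69% and 17.3% in border zone libraries, and the highest of the 12 were those of the remote zones of animals 3622 (33.5%) and 1322 (21.4%). In the border zone of animal 3622 a count was found on 28024 genes, against 16932 to 20148 in the other libraries. The members were well covered, with between 93 counts (ECSCR) and 6038 counts (PECAM1) per library. Levels are given as CPM, the count scaled to the library size after TMM normalization, which sets libraries to a shared center of all genes.

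In the RefSeq annotation of Sscrofa11.1, PECAM1 lies at chr12:14667643-14723296, CDH5 at chr6:27108560-27142145, EMCN at chr8:120174091-120227971, ERG at chr13:201999237-202302572 and ECSCR at chr2:141343818-141352618. ESAM (chr9:51983019-51992415) and ROBO4 (chr9:52083757-52097784) are neighbors on the minus strand, 91341 bases apart. CLDN5 (chr14:51161490-51162382) is a single exon of 893 bases, the shortest member, with a GC content of 68.6%, while MMRN2 (chr14:87891585-87916327) has 11979 exon bases and is the longest. EGFL7 is on an unplaced scaffold, with MIR126 inside the gene and an exon GC content of 70.7%. PECAM1 overlaps an antisense long noncoding RNA, and MMRN2 overlaps the end of BMPR1A on the opposite strand by 206 bases. The libraries did not keep strand, so reads in these overlaps could have been counted on either gene.

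CLDN5 and PECAM1, a pair of junction genes, had log2 fold changes of -0.50 and 0.17. Neither passed the test (adjusted p = 0.336 and 0.626 by edgeR), and PECAM1 was at -0.02 without animal 1022. Their promoters are shown here. Each is the 200 bases before the RefSeq start, read 5′ to 3′ on the strand of the gene from Sscrofa11.1, with capitals for GGAA or its reverse complement TTCC, the core of the ETS motif. They lie at chr14:51162383-51162582 (CLDN5, minus strand) and chr12:14667443-14667642 (PECAM1, plus strand).
CLDN5: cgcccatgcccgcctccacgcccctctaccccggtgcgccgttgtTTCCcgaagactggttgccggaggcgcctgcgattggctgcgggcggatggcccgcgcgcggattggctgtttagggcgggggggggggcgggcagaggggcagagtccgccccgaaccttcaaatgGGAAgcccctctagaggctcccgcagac
PECAM1: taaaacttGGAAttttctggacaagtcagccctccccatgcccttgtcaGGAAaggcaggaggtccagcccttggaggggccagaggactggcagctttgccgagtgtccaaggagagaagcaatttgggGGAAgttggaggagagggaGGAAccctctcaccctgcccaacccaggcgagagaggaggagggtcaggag
The core occurred 2 times in CLDN5 and 4 times in PECAM1. It was found in 9 of 10 members and in 87.7% of 20665 promoters of the same length, with a median of 2 in both. The longer form CAGGAAG, searched on both strands and overlapping the core, was found in ROBO4 and ECSCR and in 6.86% of all promoters. A GATA motif (AGATAA) was in 0 members and 6.6% of promoters, and a SOX motif (ACAAAG) was in 2 members and 9.54% of promoters. These counts describe letters in a window, and binding was not measured.

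Per kilobase of RefSeq exon, PECAM1 had the highest level (median 42.3 CPM per kb over the 12 libraries), followed by CLDN5 (35.2), CDH5 (19.8), ESAM (19.4), EGFL7 (10.5), ECSCR (7.83), EMCN (7.23), ROBO4 (6.22), ERG (3.47) and MMRN2 (2.01). The 4 junction genes took the top of the order and the transcription factor lay near its end. CDH5 and ESAM, and likewise ECSCR and EMCN, changed places when libraries were scaled by their totals only. The ranges of each gene and the next over the 12 libraries overlapped all along the order. The place of MMRN2 depends on its long RefSeq model.

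The question put to each gene was whether its level differed between border zone and remote zone. None of the 10 members passed the test (edgeR's quasi-likelihood test, adjusted p-value under 0.05 with Benjamini-Hochberg adjustment over 13844 genes), against a background of 2.07% of all genes tested. At an unadjusted p-value under 0.05 the count was also 0 of 10, against 24.7% of all genes. DESeq2 called 0 of 10 and limma with the animal as a block called 0 of 10. The log2 fold change, border zone against remote zone, was above 0 for 7 members and below 0 for 3, and 53.3% of all genes were above 0. The median of the members was 0.12 and that of all genes 0.04. By library totals 9 members were above 0, with a median of 0.47 against 0.32 for all genes, and 3 of 10 had an unadjusted p-value under 0.05, as had 4019 of the 13844 genes. Leaving out single animals moved the median of the members between -0.04 (without animal 1022) and 0.27 (without animal 1322).

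PECAM1, an adhesion molecule of endothelial contacts that platelets and leukocytes also carry, was between 138 and 199 CPM in the border zone (median 150) and between 89.8 and 191 CPM in the remote zone (median 139). The regions overlapped, and the lowest value was in the remote zone and the highest in the border zone of the same animal, 1022. Its log2 fold change was 0.17 (SE 0.20, 95% interval -0.26 to 0.60, adjusted p = 0.626 by edgeR), with 3 animals higher and 3 lower. CDH5, the cadherin of endothelial adherens junctions, showed a like picture. It was between 59.1 and 106 CPM in the border zone (median 91.7) and between 52.5 and 127 CPM in the remote zone (median 73.3), with the highest value in the remote zone of animal 1322. The log2 fold change of CDH5 was 0.16 (SE 0.22, 95% interval -0.32 to 0.63, adjusted p = 0.697 by edgeR), and its border zone was higher in 3 animals.

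ESAM, an immunoglobulin-family adhesion molecule of endothelial tight junctions, was between 31.9 and 48 CPM in the border zone (median 36.4) and between 33.6 and 69.6 CPM in the remote zone (median 38). The border zone range lay almost wholly inside that of the remote zone, where animals 1322 (69.6) and 3622 (57.1) were well above the rest. Its log2 fold change was -0.22 (SE 0.20, 95% interval -0.66 to 0.21, adjusted p = 0.513 by edgeR).

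CLDN5 had the lowest log2 fold change of the members. In the border zone it was 24.5, 31.8, 14.6, 31, 31.9 and 37.8 CPM in animals 1022, 1322, 1323, 1623, 1922 and 3622. In the remote zone of the same animals it was 26.1, 63.5, 19.5, 40.4, 27.7 and 65.8 CPM. The border zone was lower in 5 of 6 animals, with animal 1922 the exception, and the regions overlapped, because the low remote values were close to the border values. At least 5 of 6 animals were lower for 25.4% of all genes. The log2 fold change was -0.50 (SE 0.31, 95% interval -1.17 to 0.17, adjusted p = 0.336 by edgeR). With the animal as a block it was -0.41 (adjusted p = 0.149 by edgeR). CLDN5 was the 1 member with an unadjusted p-value under 0.05 in that fit, against 29.4% of all genes. The limma fit with the block gave a 95% interval of -0.79 to -0.03, which is not adjusted for the number of genes, and an adjusted p = 0.142.

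ERG, which binds the ETS core in endothelial genes, was the member with the highest log2 fold change. In the border zone it was 23.5, 16.3, 13.9, 15.3, 14.5 and 11.8 CPM in animals 1022, 1322, 1323, 1623, 1922 and 3622, and in their remote zones 10.3, 18.4, 10.8, 16.4, 11.3 and 9.82 CPM. The border zone library of animal 1022, at 23.5 CPM against 10.3 CPM in the remote zone, stood above all others, and the regions overlapped. The log2 fold change was 0.31 (SE 0.21, 95% interval -0.14 to 0.76, adjusted p = 0.378 by edgeR), with 4 animals higher. Of the 10 members, ERG and CLDN5 were those whose log2 fold change kept its sign under every alternative that was run. The size did not hold as well: ERG was 0.10 without animal 1022 and 0.16 without its border zone library alone, and by library totals ERG was 0.61 and CLDN5 -0.15.

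Among the surface proteins, EMCN, a sialomucin of capillary and venous endothelium, was between 11.6 and 20.4 CPM in the border zone (median 17.4) and between 12.8 and 31.7 CPM in the remote zone (median 17.3). Its log2 fold change was -0.23 (95% interval -0.70 to 0.24, adjusted p = 0.542 by edgeR). The medians were nearly the same, and the lower mean came with the 2 high remote zone libraries of animals 1322 (25.2) and 3622 (31.7). ROBO4, a roundabout-family receptor of endothelium that steadies the vessel barrier, was between 17.1 and 34.1 CPM in the border zone (median 25.8) and between 15.6 and 32.1 CPM in the remote zone (median 21.4). ECSCR, a small surface protein linked to endothelial migration, was between 6.41 and 10.4 CPM (median 8.45) and between 4.55 and 10.8 CPM (median 7.15). The ranges of ROBO4 were almost the same in both regions, and the border range of ECSCR lay inside its wider remote range. Their log2 fold changes were 0.16 (95% interval -0.35 to 0.68) and 0.18 (95% interval -0.33 to 0.70), with adjusted p = 0.713 and 0.675 by edgeR.

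Of the secreted members, EGFL7, a matrix protein of growing vessels whose gene also holds miR-126, varied most between animals. It was between 35.6 and 112 CPM in the border zone (median 47.4) and between 27.9 and 108 CPM in the remote zone (median 38.8). Both libraries of animal 3622 were the highest of their region (112 and 108 CPM), and the next highest values were 59.1 and 79.7 CPM. The border zone was higher in 5 of 6 animals, yet in animal 1322 it was lower by the widest margin of any member, a log2 difference of -1.16. The log2 fold change was 0.08 (SE 0.36, 95% interval -0.70 to 0.86, adjusted p = 0.919 by edgeR). Without the border zone library of animal 3622 it was -0.23. MMRN2, a multimerin of the endothelial matrix that binds surface proteins such as CD93, was between 16.7 and 30.6 CPM in the border zone (median 25.1) and between 16.3 and 40.4 CPM in the remote zone (median 19.4). MMRN2 had the log2 fold change closest to 0 (0.01, 95% interval -0.52 to 0.54, adjusted p = 0.987 by edgeR).

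**Figure D1:**
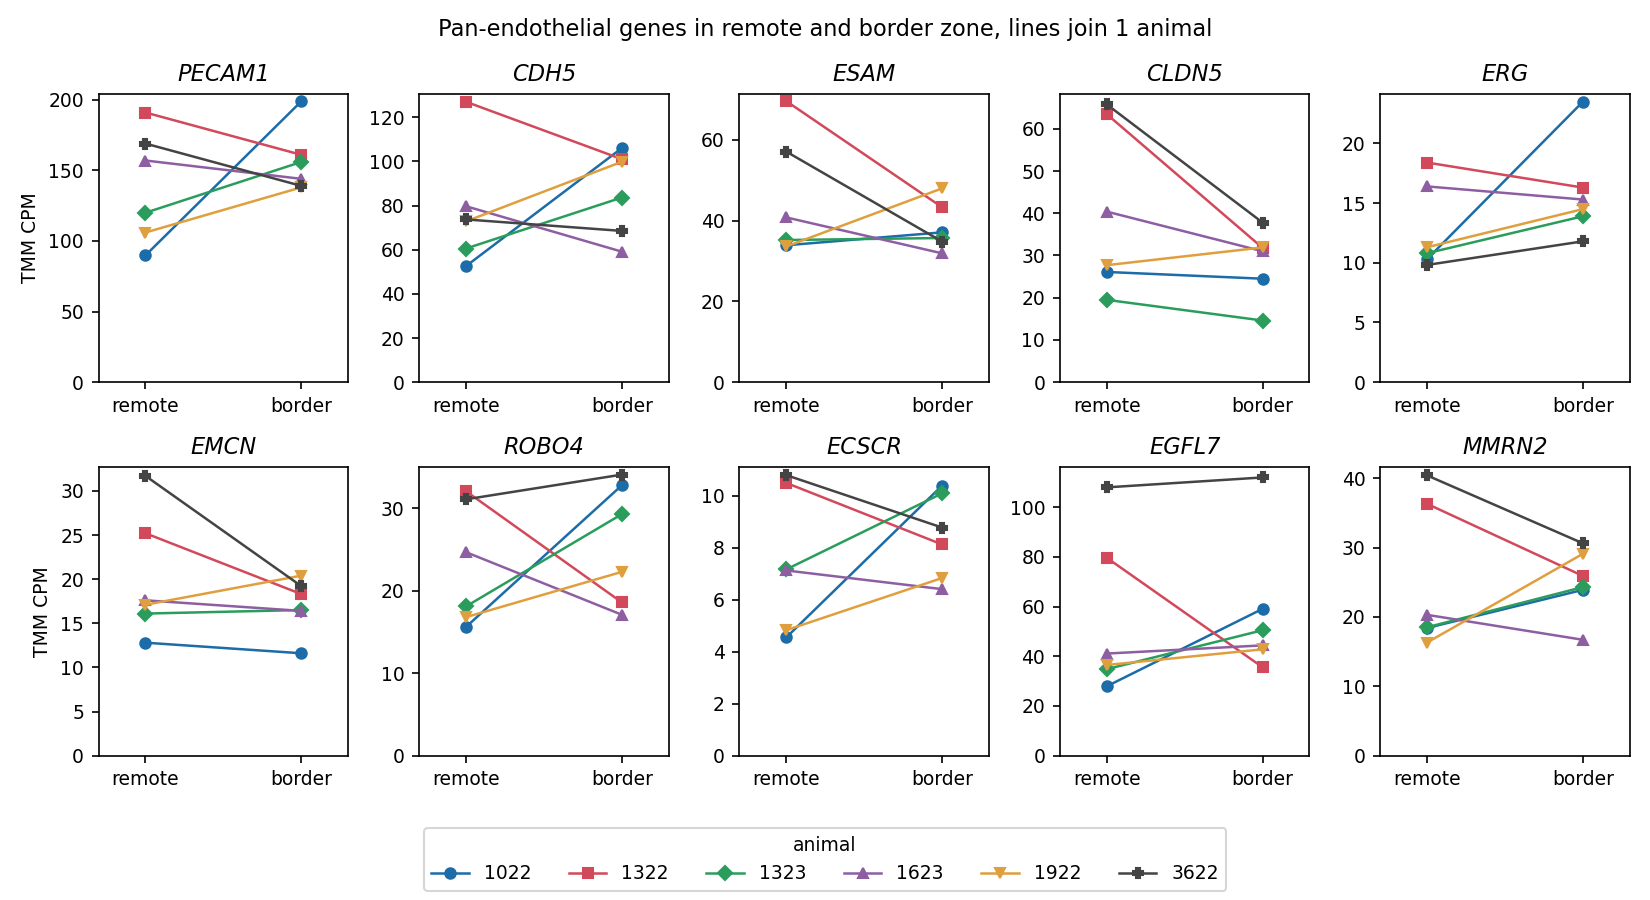
Level of each member in CPM after TMM scaling (vertical axes, each from 0) in the remote and border zone, with 1 marker per library and a line joining both libraries of an animal. Lines run in both directions for every member, and for CLDN5 animal 1922 is the only one that rises.

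The size of difference that the intervals leave possible depended on the fit. By edgeR on region alone, which leaves out the pairing by animal, PECAM1 lay between -0.26 and 0.60 and EGFL7 between -0.70 and 0.86. By limma with the animal as a block, the interval of PECAM1 was wider, from -0.27 to 0.69. That of EGFL7 was narrower, from -0.43 to 0.72. For several members the sign in the edgeR fit on region alone depended on animal 1022. Without both of its libraries the log2 fold changes of PECAM1 (-0.02), CDH5 (-0.01), ROBO4 (-0.02), ECSCR (-0.01), EGFL7 (-0.08) and MMRN2 (-0.06) were all slightly below 0. Without its border zone library alone all 6 stayed above 0, from 0.02 (MMRN2) to 0.10 (ECSCR). In the border zone of animal 1022 a list of fibroblast and matrix genes summed to 67420 CPM, against 3183 to 11570 CPM in the other border zone libraries, and a list of leukocyte genes to 1163 CPM, against 82.11 to 246.2 CPM. Their part in the values of the members was not tested.

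Within an animal the members mostly moved the same way. In animal 1922 the border zone was higher for 10 of 10 members, in animal 1323 for 9 and in animal 1022 for 8. In animal 1322 it was higher for 0 of 10, in animal 1623 for 1 and in animal 3622 for 3. Across all genes tested the share higher in the border zone was between 46.7% and 57.8% in these animals, so the splits of the members were wider than that of the whole transcriptome. The members of 1 library are not independent of each other, since they share its cells, its depth and its scaling.

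The mean log2 CPM of the members was higher in the border zone by 0.70 in animal 1022, 0.41 in animal 1922 and 0.29 in animal 1323. It was lower in the other 3, with differences of -0.57 in animal 1322, -0.28 in animal 3622 and -0.24 in animal 1623. The mean of the 6 differences was 0.05 (SD 0.49, n = 6), far less than their spread, and 3 animals lay on each side of 0. This mean depended on the setting, with 0.35 by library totals, 0.23 by totals without mitochondrial counts, and between -0.08 (without animal 1022) and 0.18 (without animal 1322) as single animals were left out.

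**Figure D2:**
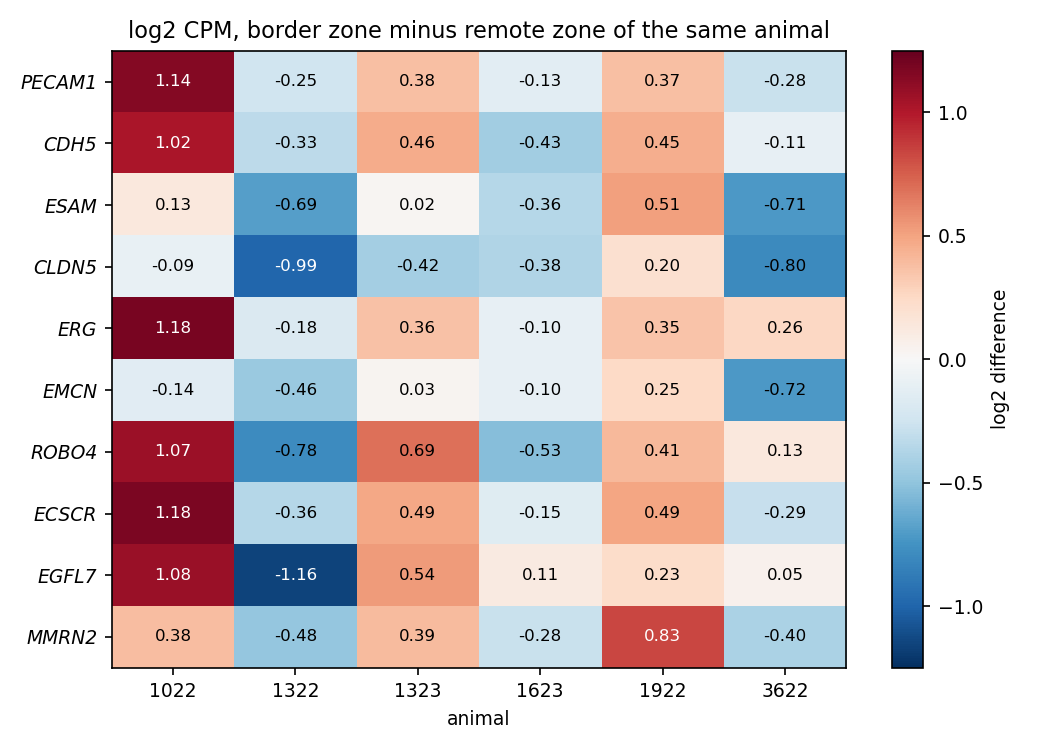
Log2 CPM of the border zone minus that of the remote zone of the same animal (color and printed value) for each member (rows) and animal (columns). Columns 1922 and 1322 hold 1 sign throughout, and CLDN5 and EMCN are the members below 0 in animal 1022, where PECAM1, CDH5, ERG, ROBO4, ECSCR and EGFL7 are above 1.

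The direction in animal 3622 depended on the scaling. Scaled by library totals only, its member mean was higher in the border zone by 0.41, with 7 of 10 members higher, while the median of all genes in that animal moved to 0.82. Scaled by totals without mitochondrial counts the difference was 0.07, with 6 of 10 members higher and a median of all genes of 0.48. In the other 5 animals the sign of the member mean was the same under TMM, DESeq2 size factors and both kinds of totals. The distance of the member mean from the median gene is not changed by a scaling, and under TMM it was -0.28 against 0.13 in this animal. By library totals the log2 fold changes of EMCN and ESAM turned to 0.10 each, with the median of all genes moved from 0.04 to 0.32.

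After TMM scaling the remote zone held both the lowest and the highest levels. The member mean of log2 CPM was between 4.73 and 5.14 in the border zone libraries, and between 4.43 (animal 1022) and 5.55 (animal 1322) in the remote zone. By library totals the highest was that of the border zone of animal 1022, at 5.50 against at most 5.25 in the remote zone. The SD of log2 CPM over 6 animals was larger in the remote zone for 10 of 10 members, and for 37.6% of all genes. Its median over the members was 0.32 in the border zone and 0.47 in the remote zone, whereas over all genes it was 0.47 and 0.38. For PECAM1 the SD was 0.20 in the border zone and 0.42 in the remote zone, and for MMRN2 it was 0.31 and 0.56.

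With single animals left out, the SD was larger in the remote zone for 7 of 10 members without animal 1322 and for 9 or 10 without any other. Without animal 1022 the SD was larger in the remote zone for 10 of 10 members and for 56.9% of all genes, whose medians were then 0.34 in the border and 0.39 in the remote zone. Animals 1322 and 3622 had the highest member means of the remote zone, and without both, a choice made after the values were seen that lowers the remote SD by construction, the SD was larger in the remote zone for 2 of 10 members, with medians of 0.34 and 0.28, and for 22.2% of all genes. By library totals it was larger for 8 of 10, with medians of 0.36 and 0.37, and for 46.7% of all genes. The remote zone libraries of animals 1322 and 3622 were those with the highest mitochondrial shares and with the highest sums of the cardiomyocyte genes (82630 and 93650 CPM, against 53860 to 59830 CPM in the other remote zone libraries). They also had the highest sums of platelet and red cell genes in the remote zone (26.67 and 13.63 CPM). Whether these bear on the members was not tested.

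A ratio of 2 genes counted in the same library does not depend on the scaling. CLDN5 was set against the other 9 members in this way after its values were seen, so these ratios are a description. CLDN5 relative to PECAM1 was between 0.0934 and 0.272 in the border zone (median 0.207) and between 0.163 and 0.39 in the remote zone (median 0.275). In each of the 6 animals the ratio was lower in the border zone, although the regions overlapped between animals, with animal 1323 low in both. The mean log2 difference was -0.62 (SD 0.39, n = 6).

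The same held in 6 of 6 animals against ERG (mean log2 difference -0.73, SD 0.44), ECSCR (-0.64, SD 0.40), MMRN2 (-0.49, SD 0.24) and ESAM (-0.23, SD 0.16). Against CDH5, EMCN, ROBO4 and EGFL7 the ratio was lower in 5 of 6 animals. Against PECAM1 the widest gap was in animal 1022, with 0.29 in the remote and 0.124 in the border zone, and the narrowest in animal 1922, with 0.26 and 0.232. Against ESAM the widest gap was in animal 1323 (log2 difference -0.44) and the narrowest in animal 1623 (-0.02). Set against each of the other 13843 genes, CLDN5 was relatively lower on the border side in all 6 animals for 21.9% of them, beside 5 of the 9 members. The 9 ratios share the counts of CLDN5 and are not separate observations.

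**Figure D3:**
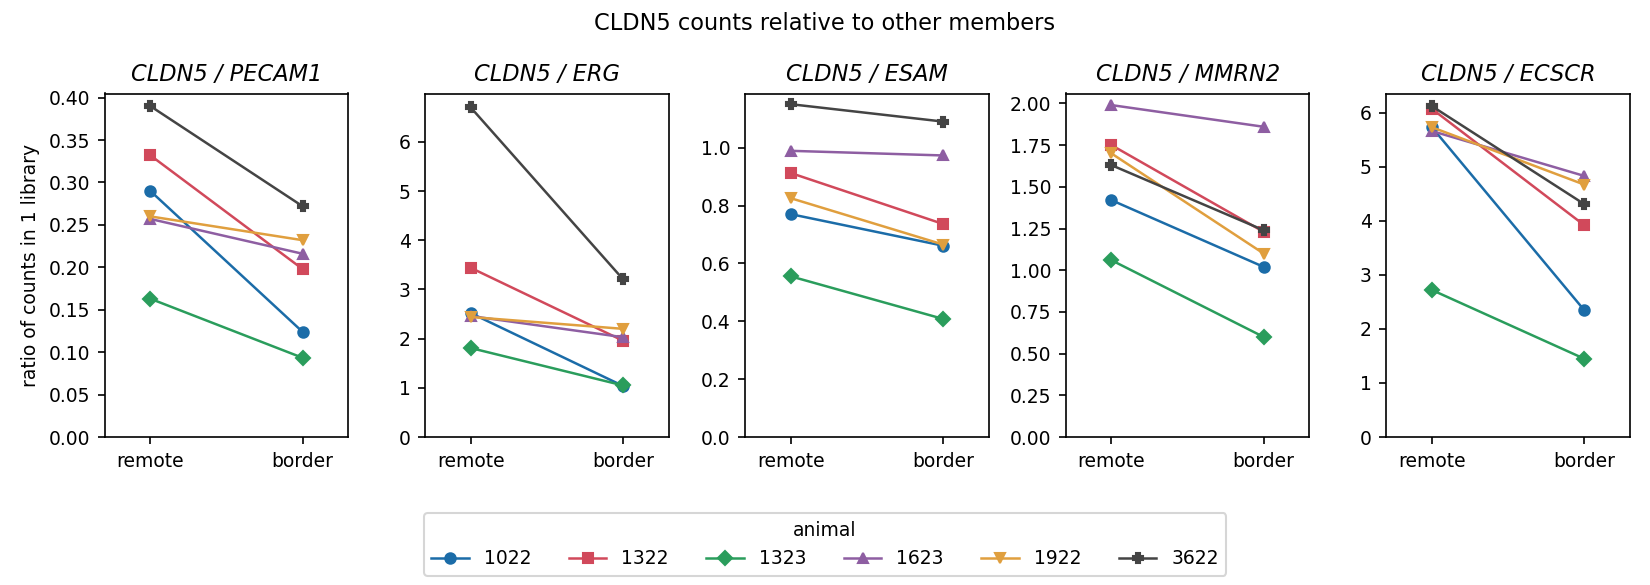
Counts of CLDN5 divided by those of PECAM1, ERG, ESAM, MMRN2 and ECSCR in the same library (vertical axes, each from 0), in the remote and border zone, with a line per animal. All 6 lines end lower in the border zone in each panel, with a mean log2 difference between -0.73 and -0.23.

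Of all 45 ratios between members, 6 had 1 direction in all 6 animals, the 5 with CLDN5 and that of ESAM to MMRN2, which was lower in the border zone with a mean log2 difference of -0.26. PECAM1 and ECSCR kept the steadiest ratio, with log2 differences between -0.12 and 0.11. PECAM1, an adhesion gene, and ECSCR, a surface protein, thus kept step in every animal.

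Over the 12 libraries the pairwise Pearson r of log2 CPM between members had a median of 0.58 and ranged from -0.27 (ERG and EMCN) to 0.89 (PECAM1 and ECSCR). It was over 0.7 for 16 of 45 pairs and below 0 for 1. The members fell into overlapping neighborhoods: ERG was most like CDH5 (0.73) and PECAM1 (0.72), CLDN5 was most like EMCN (0.75) and ESAM (0.75), and ROBO4, ECSCR, EGFL7 and MMRN2 lay between 0.74 and 0.87 of each other. ERG and CLDN5 had an r of 0.02. These correlations are across libraries that come in pairs from 6 animals and share depth and scaling within a library, so they are a description.

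**Figure D4:**
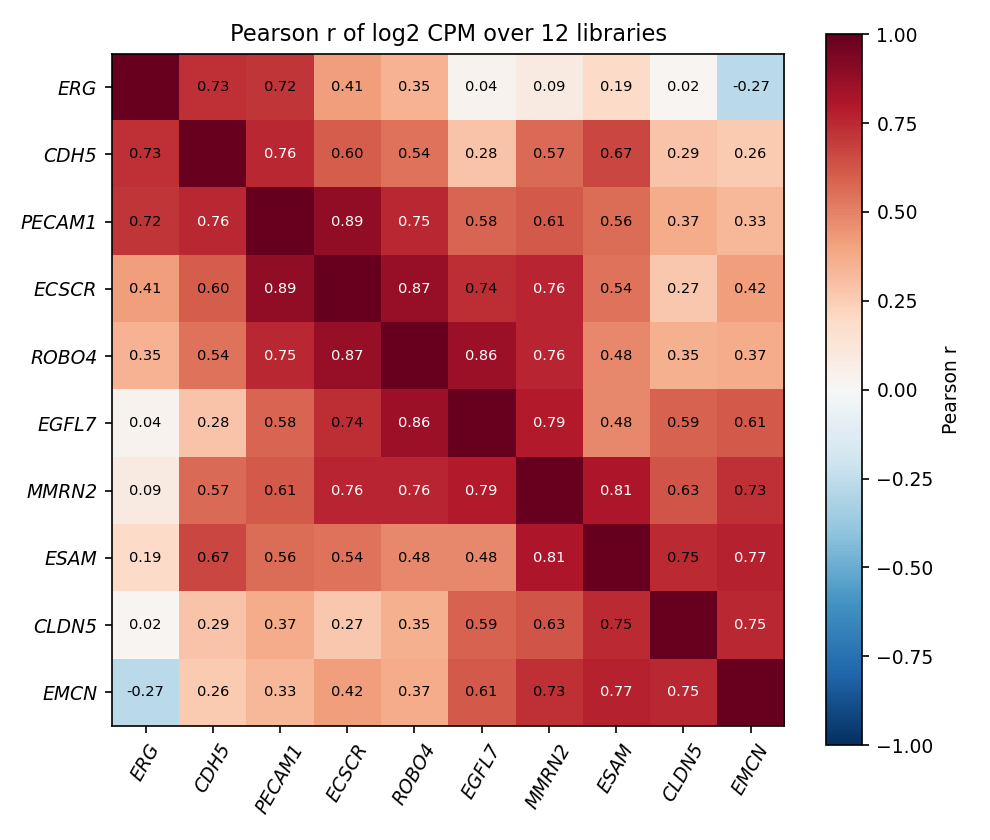
Pearson r of log2 CPM between members over 12 libraries (color and printed value), with members ordered from ERG to EMCN. Values fall from the PECAM1 and ECSCR pair (0.89) in the upper middle to the ERG and EMCN pair (-0.27) in the corners.

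Set against the mean of the other 9 members, MMRN2 was the most typical (Pearson r 0.86, Spearman rho 0.85) and ERG the least (0.32 and 0.38). CLDN5 (0.58) and EMCN (0.57) were also low. Outside the members, the genes whose level followed the member mean most closely were, with 9 named here, CLEC3B (r 0.95), PDGFB (0.94), VWA1 (0.92), RAMP2 (0.92), CD93 (0.91), GJA4 (0.91), PDE9A (0.90), COX4I2 (0.90) and EDNRB (0.89). Several are known vascular genes: PDGFB is the endothelial ligand that recruits pericytes, RAMP2 is part of the adrenomedullin receptor, CD93 is an endothelial surface receptor and GJA4 is a connexin of arteries. Over all genes the median r with the member mean was near 0 (-0.002), and 0.758% of genes reached 0.8.

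Other endothelial genes were described from lists. Of 17 receptors and surface proteins tested, such as KDR, TEK and CD34, 0 passed the test, 15 had a log2 fold change above 0, and the median was 0.28. PLVAP, the diaphragm protein of fenestrated and venous endothelium, was between 47.9 and 207 CPM in the border zone and between 22.8 and 70.5 CPM in the remote zone. The regions overlapped and 5 of 6 animals were higher (log2 fold change 1.26, SE 0.37, adjusted p = 0.0803 by edgeR). Of 16 endothelial transcription factors, 0 passed and 14 were above 0, with a median of 0.37. FOXC2, a forkhead factor of lymphatic and venous vessels, had the widest difference, 2.20, at low levels of 0.73 to 11.7 CPM against 0.356 to 1.26 CPM (adjusted p = 0.0734 by edgeR). Of 12 cytosolic and signalling genes, 0 passed and 10 were above 0 (median 0.34), led by the GTPase gene GIMAP8 at 2.01, higher in 6 of 6 animals (adjusted p = 0.0794 by edgeR), as were 11.6% of all genes. GIMAP8 and other genes of this list are also made by leukocytes, whose marker sum was highest in the border zone of animal 1022, and their part was not tested. Beside these lists, the members had the median nearest to 0.

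Some endothelial genes lay below 0, as CLDN5 did, among them 2 of the 17 receptors and 2 of the 16 transcription factors. From these exceptions TCF15 and S1PR1 were chosen after their values were seen. TCF15, a basic helix-loop-helix factor of heart capillaries, had a log2 fold change of -1.02 (adjusted p = 0.12 by edgeR). S1PR1, a receptor for sphingosine-1-phosphate, had -0.35 (adjusted p = 0.308 by edgeR). Both were lower in 6 of 6 animals, as were 11.2% of all genes. The capillary genes tested were CA4, RGCC, FABP4, AQP1, LPL, GPIHBP1 and BTNL9. All 7 had a log2 fold change below 0, between -1.28 and -0.34 with a median of -0.52, and 0 of 7 passed the test. The animals were less uniform: LPL was lower in 5 of 6, CA4, RGCC, AQP1 and GPIHBP1 in 4, and FABP4 in 3. The median of FABP4 was higher in the border zone, at 36.9 CPM against 31.5 CPM in the remote zone. BTNL9, a butyrophilin-like surface gene of capillary endothelium, was between 2.3 and 10.3 CPM in the border zone and between 8.21 and 31.3 CPM in the remote zone, and it was lower in 6 of 6 animals, as were 11.2% of all genes. Its log2 fold change was -1.28 (SE 0.37, adjusted p = 0.0795, and 0.0679 with the block, by edgeR). In animal 1022 the capillary genes summed to 421.6 CPM in the border zone and 1279 CPM in the remote zone, while the members summed to 528 and 291.8 CPM. The most abundant capillary gene by median was LPL, which cardiomyocytes also make (161 to 1040 CPM in the border and 697 to 1030 CPM in the remote zone), and the cardiomyocyte genes of that animal summed to 12060 CPM in the border and 55680 CPM in the remote zone. Their part in the capillary values was not tested. Of the 6 lymphatic genes, 5 were above 0 and 0 passed (median 0.37), led by MMRN1 at 0.81 (adjusted p = 0.27 by edgeR).

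Among genes of other cell types, those of fibroblasts and matrix were the ones with calls. Of 10 fibroblast and matrix genes tested, 8 passed the test, all higher in the border zone (background 2.06% of all genes), with a median of 2.54. The collagen genes COL3A1 (log2 fold change 2.98, adjusted p = 0.0276), COL1A1 (4.05, adjusted p = 0.0295) and COL1A2 (3.27, adjusted p = 0.0328), the matrix glycoprotein gene FN1 (5.09, adjusted p = 0.0294) and the proteoglycan gene LUM (1.97, adjusted p = 0.0338) were higher in 6 of 6 animals by edgeR. The sizes rest in part on high single values: FN1 had a border zone median of 292 and maximum of 7520 CPM against a remote median of 44 CPM, and COL1A1 had 2630 and 30300 CPM against 401 CPM. The list as a whole was highest in the border zone of animal 1022, as given with the members. With the animal as a block, 1 of these 10 genes passed (background 0.296%), and these 5 had adjusted p between 0.0748 and 0.0844. In fits by edgeR that left out animal 1623 or 3622, 0 genes of any kind passed, these included, with 2662 and 2448 genes under 0.05 before adjustment. All 10 cardiomyocyte genes were below 0 and 0 passed (median -0.46), led by the troponin gene TNNI3 at -1.10 (adjusted p = 0.148 by edgeR).

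Of 13 smooth muscle and pericyte genes, 10 were above 0 and 0 passed (median 1.08). Those below 0 were RGS5 (-0.22), KCNJ8 (-0.32) and ABCC9 (-0.15). The smooth muscle actin gene ACTA2 was at 1.91 (adjusted p = 0.0973, and 0.238 with the block, by edgeR). ACTA2 had a border zone median of 126 and maximum of 922 CPM against a remote median of 71.1 CPM. All 11 leukocyte genes tested were above 0 and 0 passed (median 1.63), with the macrophage gene CD68 at 3.20 (adjusted p = 0.0637 by edgeR). CD68 had a border zone median of 7.84 and maximum of 142 CPM against a remote median of 3.31 CPM, and the leukocyte sum too was highest in the border zone of animal 1022. Of 4 platelet and red cell genes, 3 were above 0 and 0 passed (median 0.40), with the integrin gene ITGA2B at 1.43 (adjusted p = 0.215 by edgeR). No gene of these lists was at 0 in every library, and the part of other cell types in the values of the members was not tested.

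Over the 12 libraries the mean log2 CPM of the platelet and red cell genes followed that of the members with r = 0.84, that of the endothelial receptors with 0.76, of the capillary genes with 0.62, of the endothelial transcription factors with 0.52, of the endothelial cytosolic genes with 0.47 and of the smooth muscle and pericyte genes with 0.39. For leukocyte (0.21), fibroblast and matrix (0.17), cardiomyocyte (-0.07) and lymphatic genes (-0.30) it was low. Platelet and red cell genes were scarce, at 4.381 to 15.67 CPM in sum in the border zone and 4.001 to 26.67 CPM in the remote zone, against 291.8 to 653.4 CPM for the members. The part of blood left in the tissue in the values of the members was not tested.

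**Figure D5:**
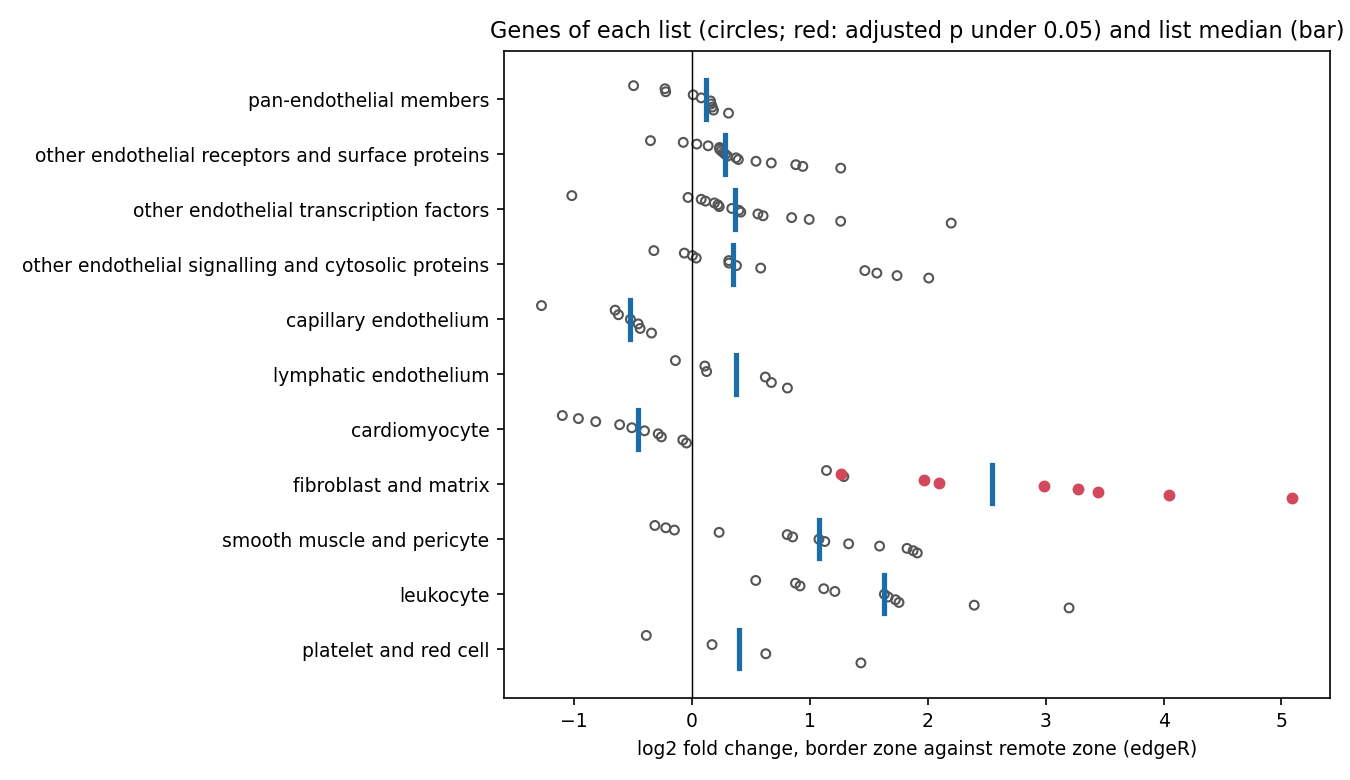
Log2 fold change, border zone against remote zone by edgeR (horizontal axis), for each gene of 11 lists (open circles, filled red where the adjusted p-value was under 0.05), with a bar at the median of each list. The members lie within -0.50 and 0.31 around a median of 0.12, the capillary genes all lie below 0, and 8 of the 10 fibroblast and matrix genes are filled.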

How the data were processed

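RNA from border and remote zones of 6 pigs was sequenced as poly(A)-enriched, nondirectional paired reads of 150 bp. The deposited values are raw counts per gene without normalization. The authors checked reads with FastQC 0.12.1 and MultiQC 1.17, aligned them with STAR 2.7.10a to Sscrofa11.1 and its Ensembl annotation (release 113), and counted them on genes with featureCounts 2.16.1. The options for reads matching several genes or places are not given in the sources used here.

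The tests were run with edgeR 4.0.16, DESeq2 1.42.0 and limma 3.58.1 (R 4.3.3), and summaries with pandas 2.3.3, SciPy 1.17.1 and NumPy 2.4.6 (Python 3.11.15). Genes were kept by filterByExpr (13844 of 35682), scaled by TMM, and border zone was compared with remote zone over all 12 libraries by the robust quasi-likelihood test, fitted on region alone. The SE is the size of the log2 fold change over the root of the F statistic, and the 95% interval is built from it. Log2 CPM used a prior count of 2. Steps were tested on simulated data. Symbols came from a table that paired 15623 identifiers, and VWF, SOX7, SOX17, SHANK3, CD36, AQP7, CD300LG, MYH7, MB, TTN, THY1, PF4, GP1BA and HBA1 had no identifier by it and were not analysed here. CD79A and PPBP were under the filter. Positions and sequences are from RefSeq on Sscrofa11.1, and per-kilobase levels used RefSeq exon lengths, which can differ from the models counted.

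The members and lists were chosen with earlier results of these data known, so no list was tested as a set and no p-value was adjusted over a list. Named genes were all members, up to 5 passing genes of each other list by p-value or else the one with the largest absolute change, and the 10 other genes closest to the member mean, of which 1 is not reported here. CLDN5, the ratio of ESAM to MMRN2, and the values of TCF15, S1PR1, LPL, FABP4, RGS5, KCNJ8 and ABCC9 were singled out after their values were seen.

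The 2 libraries with the same number are from the same animal and are therefore pairs. Across genes, their deviations from the mean of the region had an average correlation of 0.35, from -0.03 (animal 1022) to 0.57 (animal 1323). The p-values measure the spread between animals of mixed treatment. Alternatives were the animal as a replicate block, DESeq2, limma with the block, other scalings and filters, a prior count of 0.5, the median absolute deviation, and leaving out each animal or single libraries. Other scalings of the spread, the member mean by totals without mitochondrial counts, and leaving out 2 animals together were added after the data were seen.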

Additional observations from a re-analysis of the deposited data

Results flagged for a closer look

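In 40 groups of 6 libraries (the log2 CPM of each member and of the member mean, and the log2 ratio of CLDN5 to each other member, in each region), 2 had a library far from the others, a distance that chance gives in about 1 of 20 groups. The log2 ratio of CLDN5 to EMCN in the border zone was -0.17 in animal 1323, and the next lowest animal had 0.65. The log2 ratio of CLDN5 to ECSCR in the remote zone was 1.44 in animal 1323, and the next lowest had 2.49. Animal 1323 had the lowest CLDN5 of each region, 14.6 and 19.5 CPM.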

How the results depend on the processing

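The count of genes with an adjusted p-value under 0.05 between border zone and remote zone was 287 by edgeR (285 higher). It was 41 with the animal as a replicate block, 92 by limma with the block, 1719 by DESeq2, 1551 by library totals, 139 without a filter, 149 with at least 10 counts in every library, 156 without the border zone library of animal 3622, and, as single animals were left out, between 0 and 519: 0 without animal 1623 or 3622 (2662 and 2448 genes at an unadjusted p-value under 0.05), 3 without 1323, 15 without 1922, 163 without 1022 and 519 without 1322. The members called were 0 of 10 in each of these, and the block changed no call of a member.

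Of 160 member values under alternatives, 144 kept their direction and 16 reversed. MMRN2 was -0.0486 by DESeq2, -0.0400 with DESeq2 size factors, -0.0427 without a filter and -0.0573 without the border zone library of animal 3622, where EGFL7 was -0.23. By library totals EMCN was 0.10 and ESAM 0.10. With each animal left out, PECAM1 ranged from -0.0153 to 0.253, CDH5 from -0.00679 to 0.287, ROBO4 from -0.0190 to 0.333, EGFL7 from -0.0770 to 0.282, MMRN2 from -0.138 to 0.115 and ECSCR from -0.00527 to 0.285. The cause was not tested. The median SD of the members in the border zone minus that in the remote zone was -0.145 (log2 CPM), -0.00809 by library totals and 0.0633 without animals 1322 and 3622.

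The number of animals, 6 per region, limits the precision that the 95% intervals of the members show. Every member had at least 93 counts in each library.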
